A study of Mus musculus with 22 samples.

Results

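The gene set described here holds the granzymes and cytotoxic effector genes Gzma, Gzmb, Gzmk, Gzmm, Prf1, Nkg7, Klrd1, Ctsw, Eomes and Fasl, which are 10 of the 31053 genes counted. They were listed by name and were read as CPM, the UMIs of a gene scaled to a fixed total of UMIs in its class, and as the share of barcodes with a count in T and natural killer (NK) barcodes of each kind of library. A barcode stands for a droplet, and each unique molecular identifier (UMI) counted for a gene stands for a captured transcript. A T barcode had a UMI of Cd3e or Cd3d, chains of the T cell receptor complex. An NK barcode had a UMI of Ncr1 or Klrb1c, receptors of natural killer cells, and none of Cd3e, Cd3d or Cd3g.

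Cytotoxic lymphocytes kill by releasing granules in which perforin (Prf1) opens a way into the target cell for granzymes, serine proteases that start its death. Granzyme A and granzyme B are the ones best known for killing, granzyme K is carried mostly by memory-like CD8 T cells, and granzyme M is known from NK cells. Nkg7 is a granule membrane protein, Ctsw (cathepsin W) a protease of cytotoxic lymphocytes, Klrd1 (CD94) the partner of the NKG2 receptors, Eomes a T-box transcription factor of NK cells and memory CD8 T cells, and Fasl the ligand that triggers death through Fas.

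Libraries were droplet captures from mice of strain Prom1-CreERT2;Rosa26ZSG without tumours, kept on a mixed B6/FVB/N background, in which tamoxifen, given to pups or adults, makes Prom1-expressing cells and their progeny carry the ZSG (ZsGreen) tag. The driver is the Prom1CreERT2/LacZ locus, and mice had the wild-type (wt), heterozygous (het) or null genotype of a conditional allele of Nalcn, a sodium leak channel gene, which the same recombinase deletes only where Prom1 is or was expressed. Circulating ZSG+ cells sorted from peripheral blood (ntCZC) gave 10 libraries, 2 wt, 4 het and 4 null, from mice aged 551 to 649 days, 6 male and 4 female. Organs pooled after tagging with hashtag antibodies (tissue: stomach, lung, liver, kidney and either epididymis or uterus) gave 9 libraries with a genotype, 5 wt, 2 het and 2 null, aged 551 to 654 days, 6 male and 3 female. Nucleated cells of peripheral blood not sorted for ZSG (PBMC) gave 1 library, from a wt male of 120 days. A further 2 tissue libraries, whose labels disagree on the genotype, entered no comparison. Since no label identifies an animal, n is a number of libraries, and p-values measure the spread between libraries only. No Nalcn UMI was found in any of the 31 T and NK sums of these libraries, 0 of 6377 barcodes, which allows a share of barcodes with a captured UMI of up to 0.047% and sets no limit on cells that express the gene, so the genotype labels could not be checked in these cells.

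There were 125 T and 20 NK barcodes among 2501 in ntCZC libraries, 5562 T and 375 NK among 143502 in tissue libraries, and 252 T and 43 NK among 752 in the PBMC library. Library totals ran from 161541 to 2600526 UMIs in ntCZC and from 8571019 to 139793927 in tissue. The number of T barcodes in a library was 0 to 55 in ntCZC and 11 to 1663 in tissue, and only libraries with at least 10 barcodes of a class gave a value for it. That left 3 ntCZC and 9 tissue libraries for T and 1 ntCZC and 8 tissue libraries for NK. The median T barcode had 3980 to 5882 UMIs in the 3 ntCZC libraries, 840 to 4723 in tissue and 2493 in PBMC. T and NK barcodes with at least 2 UMIs of another lineage, 4097 in all, were set aside beforehand. They were 4064 in tissue, 29 in ntCZC and 4 in PBMC libraries, a larger part in tissue than in the other kinds. In tissue their median was 1714 to 9080 UMIs by library, and they held 22.1% of the Gzmb UMIs of passing barcodes. Of 231 pairs of libraries 127 shared a barcode sequence, and in all 4 T or NK barcodes were shared.

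Markers that the gate did not use were divided. Trac, the constant part of the T cell receptor alpha chain, was found in 80.8% of ntCZC T, 33.7% of tissue T and 59.5% of PBMC T barcodes, and in 0 of 20, 3 of 375 (0.80%) and 0 of 43 NK barcodes. A count of 0 of 20 or of 43 barcodes allows a share of barcodes with a UMI, not of cells that express the gene, of up to 15% or 6.98%. Tyrobp, a signalling adaptor of NK receptors, was found in 100%, 80.5% and 95.3% of NK barcodes of the 3 kinds and in 12.8%, 11.5% and 1.98% of T barcodes. Cd5 also separated the classes, in 0 of 20, 1 of 375 and 0 of 43 NK barcodes against 24.8%, 12.2% and 33.7% of T barcodes. Trbc1, a beta chain constant part, did not, and was found in 100%, 41.9% and 27.9% of NK and 65.6%, 35.9% and 51.6% of T barcodes, with the order of the classes differing between kinds. Lck was found in 50% of ntCZC NK and 80.0% of ntCZC T barcodes, in 48.8% and 65.1% in PBMC, and in 27.7% and 25.9% in tissue. NK is therefore used here for what the gate took. The ntCZC NK barcodes stood apart from the PBMC ones in other markers. Cxcr6 and Itga1, known from tissue-resident lymphocytes, were found in 60.0% and 55.0% of the 20 ntCZC NK barcodes, in 13.6% and 11.5% of tissue NK barcodes and in 0% and 4.65% of PBMC NK barcodes, while Klra4 was found in 5.00%, 23.5% and 67.4%. All shares in this paragraph are unthinned. Of the 20 ntCZC NK barcodes 16 were of het replicate 4, with a median of 3970.5 UMIs against 759 to 2669 in tissue libraries and 2007 in PBMC. In CPM, that library had 375 for Cxcr6 against 22.5 to 264 in tissue. For Itga1 it had 188 against 0 to 170, a small gap.

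Members were rare in tissue B barcodes, which give a partial measure of background RNA. A B barcode had a UMI of Cd79a or Ms4a1. The gate allowed it none of Cd3e, Cd3d, Cd3g, Ncr1 or Klrb1c. Barcodes that picked up such RNA were therefore left out, and the shares can be too low. In tissue B barcodes, which should not make the effector genes, between 0.29% (Fasl) and 1.70% (Nkg7) of 11748 barcodes had a UMI of a member, at a median of 1864 UMIs per barcode, against 1579 in tissue T and 1546 in tissue NK barcodes. Gzmm was found in 0.37% of tissue B barcodes and in 1.42% of tissue T barcodes (79 of 5562), so its values rest on few UMIs throughout.

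The 10 genes lie on 8 chromosomes (GRCm38), and Gzma and Gzmk lie together. Gzma is at chr13:113093825-113100981 on the minus strand and Gzmk at chr13:113171608-113225908, also on the minus strand, with 70.6 kb and no protein-coding gene between them. Gzmb is at chr14:56258838-56262260 on the minus strand and Prf1 at chr10:61297833-61304680 on the plus strand. Gzmm shares the chromosome of Prf1, at chr10:79689020-79695261. The promoters of Gzma, Gzmk and Gzmb are shown because these 3 proteases of the same family differed in which barcodes carried them. Each runs 5′ to 3′ from 250 bases before to 50 bases after the start of the gene in RefSeq (GRCm38.p6), and capitals mark matches, on either strand, to GGTGTGA (bound by T-box factors such as Eomes), TGTGGT (bound by Runx factors) or TGACTCA (bound by AP-1).
Gzma (chr13:113100932-113101231, minus strand): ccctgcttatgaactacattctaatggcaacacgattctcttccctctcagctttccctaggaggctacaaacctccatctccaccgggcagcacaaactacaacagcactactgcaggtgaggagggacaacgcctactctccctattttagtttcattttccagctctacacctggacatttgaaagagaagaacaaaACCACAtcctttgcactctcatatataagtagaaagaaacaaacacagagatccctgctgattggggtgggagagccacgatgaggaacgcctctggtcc
Gzmk (chr13:113180916-113181215, minus strand): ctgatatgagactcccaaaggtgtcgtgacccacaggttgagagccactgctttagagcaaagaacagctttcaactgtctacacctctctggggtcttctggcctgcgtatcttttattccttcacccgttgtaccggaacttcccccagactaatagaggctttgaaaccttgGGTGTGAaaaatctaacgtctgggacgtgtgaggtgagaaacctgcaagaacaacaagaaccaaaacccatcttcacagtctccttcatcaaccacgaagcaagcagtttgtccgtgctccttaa
Gzmb (chr14:56262285-56262584, minus strand): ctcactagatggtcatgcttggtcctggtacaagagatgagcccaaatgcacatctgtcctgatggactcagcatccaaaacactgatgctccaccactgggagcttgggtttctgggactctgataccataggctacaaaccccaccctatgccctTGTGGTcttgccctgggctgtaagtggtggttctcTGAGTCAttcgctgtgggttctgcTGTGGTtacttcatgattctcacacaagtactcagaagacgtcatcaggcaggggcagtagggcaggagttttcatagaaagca

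The RefSeq start used for Gzmk lies inside the longer gene model given above. The T-box letters were in the Gzmk promoter, 75 bases before the start, and not in the Gzma or Gzmb window. The Gzma window held 1 match to the Runx letters, 50 bases before the start, and the Gzmb window held 2 of these and 1 match to the AP-1 letters. Among 32851 mouse promoters of the same length, 3.98% held the T-box letters, 16.8% the Runx letters and 5.2% the AP-1 letters. A promoter was found for 8 of the 10 genes, with 2 starts for Gzmm. The T-box letters were also in the Nkg7 promoter and at 1 start of Gzmm, and the Runx letters in those of Nkg7, Prf1 and the other start of Gzmm. A match describes the letters and shows no binding.

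Within the organs, killing genes were higher in NK than in T barcodes of the same libraries, and Gzmk was the exception. Over the 8 tissue libraries with both classes, 8 members rose in NK barcodes (Gzma, Prf1, Gzmb, Klrd1, Nkg7, Ctsw, Eomes, Fasl), Gzmk fell, and Gzmm did not reach the count needed for the test. With each library as a block, 6890 genes were tested (quasi-likelihood test of edgeR, p-values adjusted after Benjamini-Hochberg), and 12.8% of all genes were called, 4.28% higher and 8.56% lower in NK barcodes. The median log2 change of the 9 members tested was 1.52, and that over all genes was -0.09.

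Granzyme A had the largest fitted rise of the 8 members that rose. Its level in T barcodes was 42.3 to 144 CPM (median 97.3) and in NK barcodes 1249 to 6371 CPM (median 3937), so no library of either class overlapped the other. The NK level was 11.3 to 85.8 times the T level of the same library, and the fitted log2 change was 4.91 ± 0.23 (SE, adjusted p = 2.81e-22). After every barcode was thinned to 1000 UMIs, a mean of 53.9% ± 22.4 (SD, n = 8) of NK barcodes and 3.03% ± 0.67 (SD, n = 9) of T barcodes had a Gzma UMI. Unthinned and pooled, the shares were 65.6% of 375 and 3.22% of 5562 barcodes.

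Granzyme B and perforin moved the same way. Gzmb was at 40.2 to 117 CPM (median 57.0) in T barcodes and 150 to 946 CPM (median 651) in NK barcodes, again without overlap, with a log2 change of 3.03 ± 0.21 (SE, adjusted p = 5.03e-16). Prf1 was at 12.3 to 54.7 CPM (median 24.2) in T and 49.97 to 685 CPM (median 426) in NK barcodes, with a log2 change of 3.59 ± 0.21 (SE, adjusted p = 1.4e-18). Prf1 was higher in NK barcodes in 8 of 8 libraries, and its ranges overlapped only through tissue null replicate 2, whose 33 NK barcodes had a median of 759 UMIs. That library was also the lowest in NK barcodes for Gzma, Gzmb, Nkg7, Klrd1, Ctsw and Eomes, and 10 of its 33 NK barcodes had 1000 UMIs or more. Its NK barcodes were also low in NK markers, which summed to 2049 CPM against 4048 to 6970 CPM in the other 7 libraries, with Tyrobp in 36.4% and Klrk1 in 6.06% of barcodes, and in T markers, at 150 CPM against 421 to 1083 CPM. Epithelial markers (199.9 CPM, 8 UMIs, against 18.4 to 80.2 CPM) and B cell markers (125 CPM, 5 UMIs, against 0 to 60.1 CPM) were highest in this library. The part of this in its member levels was not tested. Without it all 9 members remained called, and the log2 change of Gzma was 5.10.

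The other members differed less between the classes. Klrd1 was at 36.4 to 114 CPM in T and 99.9 to 912 CPM in NK barcodes, a log2 change of 2.51 ± 0.18 (SE, adjusted p = 9.29e-16). Nkg7, at 242 to 727 CPM in T and 500 to 2160 CPM in NK barcodes, changed by 1.52 ± 0.14 (SE, adjusted p = 4.01e-12). Ctsw, at 60.5 to 126 CPM in T and 99.9 to 483 CPM in NK barcodes, changed by 1.51 ± 0.18 (SE, adjusted p = 1.01e-08). Each of these 3 genes was higher in NK barcodes in 8 of 8 libraries, by at least 1.58-fold (Ctsw) and at most 12.0-fold (Klrd1). Eomes was higher in 7 of 8 libraries, from 34.5 to 226 CPM in T and 49.97 to 522 CPM in NK barcodes, with a log2 change of 1.15 ± 0.20 (SE, adjusted p = 1.4e-05). Fasl was higher in 6 of 8 libraries, changing by 0.96 ± 0.26 (SE, adjusted p = 0.00717). It lost its call without tissue wt replicate 1 (log2 change 0.76, adjusted p = 0.142). When barcodes with UMIs of another lineage were kept, the calls of Nkg7, Ctsw, Eomes and Fasl were lost (log2 changes 0.70, 0.71, 0.18 and 0.02, adjusted p = 0.0597, 0.0987, 0.653 and 0.983).

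Gzmk had the opposite pattern. Its T level was 22.5 to 139 CPM (median 54.7), 756 UMIs in all 8 libraries, and a single NK barcode, of tissue wt replicate 2, held 1 UMI. The pooled NK level was 0.0199 times the T level, with a counting interval of 0.000503 to 0.111 that covers counting error only, and no library had more Gzmk in NK than in T barcodes. Gzmm stood at 4.18 to 15.8 CPM in T and 0 to 33.7 CPM in NK barcodes and was higher in NK barcodes in 3 of 8 libraries, with 110 and 7 UMIs in all.

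**Figure D1:**
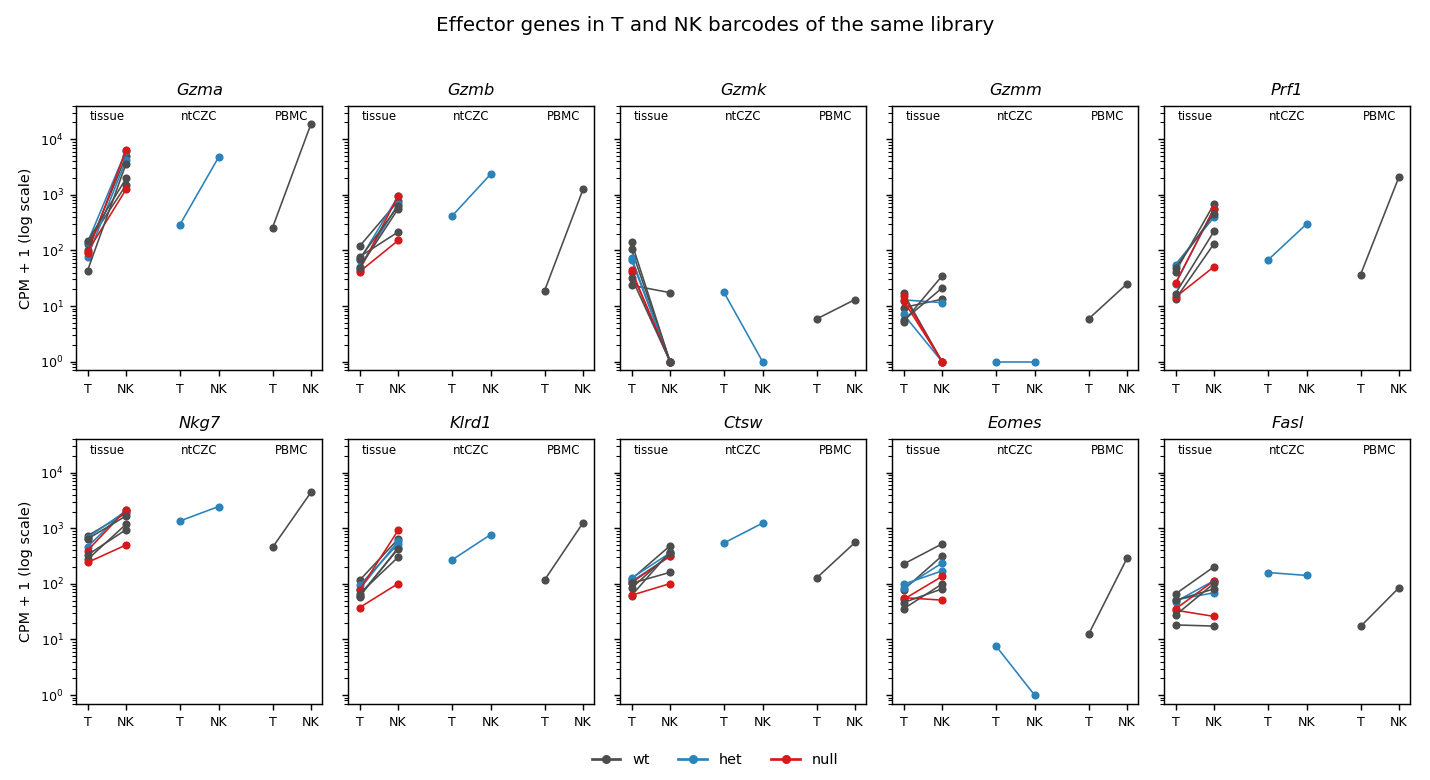
CPM + 1 of each gene (log axis) in T and NK barcodes of the same library, joined by a line, for 8 tissue, 1 ntCZC and 1 PBMC library, coloured by Nalcn genotype. Gzma rises from 42.3 to 144 CPM in tissue T barcodes to 1249 to 6371 CPM in NK barcodes, while Gzmk falls to 0 in 7 of the 8 tissue libraries.

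Genes that work beside the members were read from a list of 50 in 6 roles. Among NK receptors and adaptors, 17 of 18 rose in NK barcodes (median log2 change 3.30), beside 4.28% higher and 8.56% lower among all 6890 genes. Klra8 (6.74 ± 0.35 SE), Klra4 (6.38 ± 0.29 SE), S1pr5 (5.32 ± 0.72 SE) and Klre1 (4.48 ± 0.20 SE) changed most. The gate itself chose NK barcodes by the NK receptor genes Ncr1 and Klrb1c. A rise of other NK receptors was therefore largely set by the gate and is no separate support for the class. The Klra genes encode Ly49 receptors and are close copies of each other, so their counts may be split between copies. Of 7 death ligands and effector cytokines, 5 rose and 1 fell. Xcl1, a chemokine for dendritic cells, rose by 2.42 ± 0.21 (SE) and Ccl5 and Ccl3 by 1.20 ± 0.14 and 1.11 ± 0.24 (SE), while Tnf fell by 2.30 on the log2 scale (SE 0.50). Granule handling was divided. The granzyme inhibitors Serpinb9 and Serpinb6b rose by 2.27 ± 0.18 and 2.15 ± 0.20 (SE), Srgn, the proteoglycan that packs granule proteases, fell by 0.68 on the log2 scale (SE 0.13), and Ctsc, Cst7 and Lamp1 did not pass the test. Of the 5 genes of the release machinery (Unc13d, Rab27a, Stx11, Stxbp2, Coro1a) only Coro1a was called, and it fell by 0.50 (SE 0.14). Of 8 transcription factors, Tbx21 (T-bet), Zeb2 and Id2 rose by 1.90 ± 0.25, 1.63 ± 0.26 and 0.44 ± 0.15 (SE), and Lef1 and Tcf7, factors of naive and memory T cells, fell by 2.28 and 1.29 (SE 0.31 and 0.24). Among 6 further granzymes only Gzmc had the counts for a test and it rose, by 3.67 ± 0.72 (SE).

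Across the 16 T and NK sums of these 8 libraries, the genes whose log2 CPM was most like the mean of the 9 members were Itgb2 (Pearson r = 0.96), Il2rb (0.94), AW112010 (0.93), Serpinb9 (0.93) and Ugcg (0.92). The sums share libraries and fall into the T and NK classes, so these values describe the order of the sums and carry no test.

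The order of classes was not the same for each gene. Classes outside T and NK were gated by their own markers in the tissue libraries. NK barcodes had the highest mean of Gzma (3776 ± 2053 CPM, SD, n = 8 libraries), and CD8 T (152 ± 118, SD) and other T barcodes (95.8 ± 57.2, SD) came next with overlapping ranges. Gzmk was highest in CD8 T barcodes (129 ± 68.4 CPM, SD, n = 8), followed by CD4 T (46.8 ± 42.1, SD) and other T barcodes (42.8 ± 38.2, SD), which overlapped. NK barcodes (2.05 ± 5.8, SD, 0 to 16.4) lay below all other T sums (17.5 to 135) and within the range of CD4 T sums (0 to 121). Prf1, Nkg7, Klrd1, Ctsw, Eomes and Fasl all had their highest mean in NK and their next in CD8 T barcodes, and for each of them the ranges of the 2 classes overlapped.

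Gzmb was also found outside lymphocytes, at levels that reached those in NK barcodes. In barcodes with at least 2 UMIs of Mcpt8, Cpa3 and Ms4a2, genes of basophils and mast cells, Gzmb was at 936 ± 364 CPM (SD, 6 libraries, 365 to 1405) against 609 ± 298 CPM (SD, n = 8, 150 to 946) in NK barcodes, with overlapping ranges. Of 145 such barcodes, 33.8% had a Gzmb UMI (95% exact interval 26.2 to 42.1%), 455 UMIs in all. The remaining members had 0 or 1 UMI in these 145 barcodes, except Nkg7 with 17. Of the Gzmb UMIs in all passing tissue barcodes, 12.6% lay in this class, 14.0% in NK and 19.6% in T barcodes. Klrd1 was found in barcodes with the plasmacytoid dendritic cell genes Siglech and Klk1, at 62.5 ± 46.0 CPM (SD, n = 8), near its level in other T barcodes (63.7 ± 19.7, SD).

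**Figure D2:**
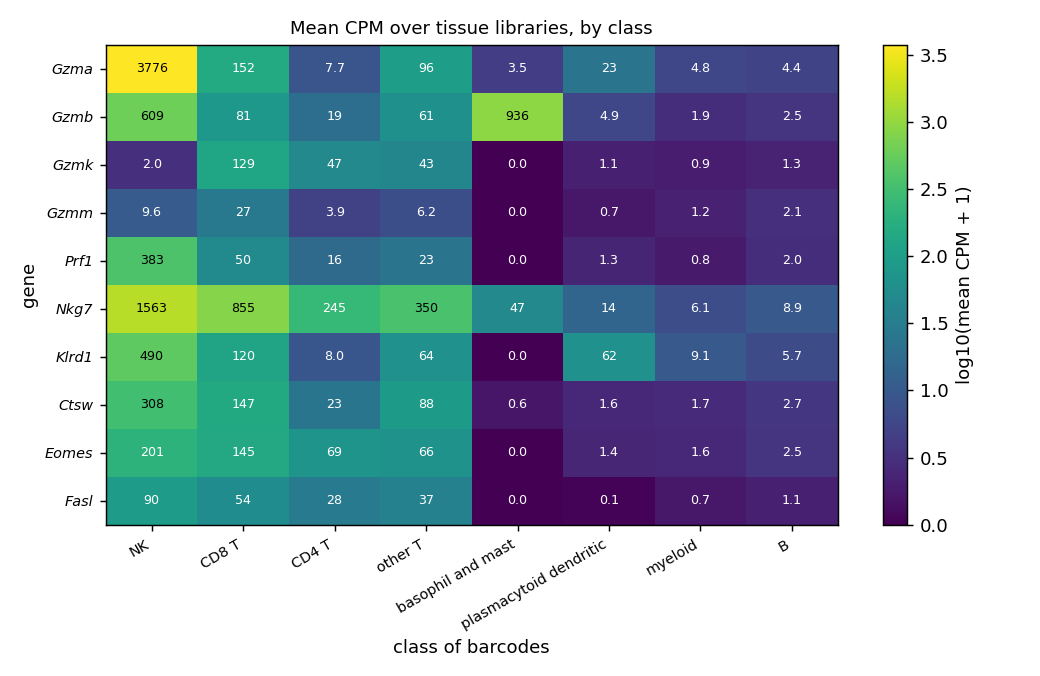
Mean CPM over the tissue libraries with at least 10 barcodes of a class, for each gene (rows) and class (columns), with colour on the log10(mean CPM + 1) scale. Gzma peaks in NK barcodes (3776), Gzmk in CD8 T barcodes (129), and Gzmb is high in NK (609) and in basophil and mast barcodes (936).

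Within tissue T barcodes, effector genes were higher in CD8 than in CD4 T barcodes. A CD8 T barcode had a UMI of Cd8a or Cd8b1 and none of Cd4, and a CD4 T barcode had the reverse. These were 1050 and 583 of the 5562 T barcodes, and 3896 had neither, so they are a part of the T barcodes with the right UMI and not whole subsets. Of the 3106 genes tested by edgeR's quasi-likelihood test over 8 libraries, 7.12% were called, 4.28% higher and 2.83% lower in CD8 T barcodes. Of the members 8 were tested and 7 rose, with a median log2 change of 1.78 over the 8 against 0.02 over all genes, and none fell. Gzmm and Prf1 did not reach the count needed.

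Gzma was at 40.7 to 401 CPM (median 122) in CD8 T barcodes and at 0 to 50.6 CPM (median 0) in CD4 T barcodes, 6 of the 8 libraries having none, with a log2 change of 2.96 ± 0.53 (SE, adjusted p = 0.000848). Of its 23 CD4 T UMIs, 21 came from tissue wt replicate 4. Klrd1 was at 47.2 to 227 CPM and 0 to 48.2 CPM, 3.16 ± 0.42 (SE, adjusted p = 2.17e-05), and 20 of its 24 CD4 T UMIs came from the same library. With so few CD4 T UMIs of Gzma and Klrd1 elsewhere, the sizes of both changes are uncertain. Ctsw, at 106 to 205 against 0 to 76.3 CPM, changed by 2.78 ± 0.29 (SE, adjusted p = 5.12e-07). For Ctsw and Nkg7 (507 to 1500 against 76.3 to 460 CPM, 1.90 ± 0.21 SE, adjusted p = 1.03e-06) no library of the 2 subsets overlapped. Gzmb rose by 1.66 ± 0.29, Gzmk by 1.29 ± 0.28 and Eomes by 1.24 ± 0.28 (SE, adjusted p = 0.000754, 0.00434 and 0.00624), while Fasl, at 54.0 ± 24.1 and 27.8 ± 31.5 CPM (SD, n = 8), did not pass (log2 change 0.89 ± 0.35 SE, adjusted p = 0.169). The number called was 4 of 7 tested, beside 30 of all 3159 genes (0.95%), with barcodes of 500 or more genes and no more than 10% mitochondrial UMIs, and Gzmb, Gzmk and Eomes were then not called.

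Of the genes listed beside the members, Xcl1 (2.71 ± 0.37 SE), Ccl4 (2.56 ± 0.35 SE) and Ccl5 (2.31 ± 0.23 SE) rose in CD8 T barcodes out of 6 cytokines and death ligands tested. Runx3, a factor of the CD8 lineage, rose by 1.02 ± 0.20 and Lef1 by 0.94 ± 0.25 (SE) out of 6 transcription factors. Serpinb9 and Cst7 rose by 0.96 ± 0.28 and 0.86 ± 0.24 (SE), Srgn fell by 0.55 (SE 0.17), and Stx11, a syntaxin of granule release, fell by 2.00 on the log2 scale (SE 0.29). None of the 3 receptors and adaptors tested was called.

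The granzymes did not sit evenly over tissue T barcodes. Among T barcodes with a Gzmk UMI, the share with an Eomes UMI after thinning was 11.6% to 30.4% (median 23.2%) over 8 tissue libraries, against 2.34% to 13.8% (median 3.68%) without Gzmk, and it was higher in 8 of 8. With a Gzmb UMI the share with Gzma was 3.18% to 25.8% (median 17.8%), against 1.29% to 2.88% (median 1.86%) without, also in 8 of 8 libraries. For Gzmk and Gzmb together the share was higher in 6 of 8 libraries (median 12.4% against 3.31%). With a Gzmk UMI the share with Gzma was also higher, in 8 of 8 libraries (median 6.96% against 2.33%). Nkg7 with Gzmk, and Nkg7 and Prf1 with Gzmb, were likewise higher in 8 of 8. Every pair examined thus had the higher median where the first gene was found. These shares describe barcodes of the same libraries and carry no test.

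The balance of the 2 neighbouring granzymes varied between libraries. Gzmk UMIs made up 14.6% (wt replicate 2) to 76.7% (wt replicate 4) of Gzma and Gzmk UMIs in tissue T barcodes, 0% to 14.7% in the 3 ntCZC libraries and 1.85% in PBMC T barcodes. The ntCZC value of 0% rests on 2 Gzma UMIs (null replicate 2), and 14.7% lies within the tissue range. Of the 159 PBMC Gzma UMIs, 147 lay in 2 barcodes. In NK barcodes the share was 0% to 1.09% in every library. Tissue wt replicate 4 and replicate 5 also had the highest Eomes levels in T barcodes, 226 and 239 CPM, against 34.5 to 97.3 CPM in the other 7. The value of replicate 5 rests on 11 T barcodes, 4 of them with an Eomes UMI.

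Most members were higher in T barcodes of the sorted ntCZC libraries than in T barcodes of organs. Of 9 tested, Gzmb, Ctsw, Gzma, Klrd1, Fasl and Nkg7 rose, Eomes fell, and Gzmk and Prf1 were not called. In this comparison of 3 ntCZC with 9 tissue libraries, with sex as covariate, edgeR's quasi-likelihood test called 25.7% of 6851 genes, 10.2% higher and 15.5% lower in ntCZC, so a call was common among all genes. The median log2 change of the 9 members was 1.66, and that over all genes was -0.10. The 3 ntCZC libraries (wt replicate 1, het replicate 4, null replicate 2) were all from males and held 27, 55 and 12 T barcodes.

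Gzmb was at 1723, 414 and 479 CPM in ntCZC T barcodes (wt, het, null) and at 0 to 117 CPM (median 48.7) in tissue. No tissue library reached the lowest ntCZC value, and the log2 change was 3.32 ± 0.38 (SE, adjusted p = 4.29e-05). Ctsw was the most even, at 571, 543 and 612 CPM against 17.1 to 126 CPM (median 101.3), 2.37 ± 0.29 (SE, adjusted p = 8.81e-05). Klrd1 was at 267, 268 and 333 CPM against 36.4 to 114 CPM (median 76.1), 1.73 ± 0.28 (SE, adjusted p = 0.000841).

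Nkg7 and Fasl followed this pattern. Nkg7 was at 1539, 1354 and 1650 CPM against 137 to 727 CPM (median 397), 1.54 ± 0.37 (SE, adjusted p = 0.00791). Fasl was at 129, 159 and 173 CPM against 17.2 to 64.8 CPM (median 34.3), 1.66 ± 0.35 (SE, adjusted p = 0.00387). With genotype and replicate number as a block in place of sex, Fasl was not called (1.19 ± 0.46 SE, adjusted p = 0.0912), and 759 genes were called in place of 1762. That fit rests on wt replicate 1 and null replicate 2, the only blocks with both kinds of library, and ntCZC het replicate 4 adds nothing to it. Gzmb, Ctsw, Klrd1, Nkg7, Fasl and Eomes, 6 members, had no ntCZC value within the range of the 9 tissue libraries. How many of all genes did so was not counted, so this does not set the members apart from genes in general. For Nkg7 the lack of overlap does not extend to the 2 tissue libraries without a genotype, since 1 of them, at 1462 CPM, lay above ntCZC het replicate 4. Thinned to 1000 UMIs, 65.3% to 79.7% of ntCZC T barcodes had an Nkg7 UMI against 10.4% to 34.7% in tissue, and for Gzmb the shares were 19.3% to 36.8% against 0% to 7.87%. Pooled and unthinned, 87.2% of 125 and 32.4% of 5562 T barcodes had an Nkg7 UMI, and 44.8% and 6.0% a Gzmb UMI.

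Eomes went the other way. It was at 18.4, 6.62 and 0 CPM in ntCZC T barcodes, 4 UMIs in 125 barcodes, and at 34.5 to 239 CPM (median 77.0) in tissue, with a fitted log2 change of -3.11 ± 0.83 (SE, adjusted p = 0.0134). Gzma was spread widely. It was at 1336 CPM in ntCZC wt replicate 1, 291 in het replicate 4 and 26.6 in null replicate 2, against 42.3 to 144 CPM in tissue, so the ranges overlapped, and its call (1.96 ± 0.52 SE, adjusted p = 0.0136) was lost without ntCZC wt replicate 1 (log2 change 0.65, adjusted p = 0.35). Gzmk had 230, 16.6 and 0 CPM against 22.5 to 139 CPM (0.12 ± 0.73 SE, adjusted p = 0.934), and without ntCZC wt replicate 1 its log2 change was -2.20 (adjusted p = 0.107). Prf1 had 92.2, 66.2 and 26.6 CPM against 0 to 54.7 CPM (1.15 ± 0.54 SE, adjusted p = 0.123). Gzmm was at 0, 0 and 26.6 CPM, from 2 UMIs, against 0 to 15.8 CPM and was not tested. Eomes and Fasl were not called without ntCZC het replicate 4 (adjusted p = 0.114 and 0.0701).

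**Figure D3:**
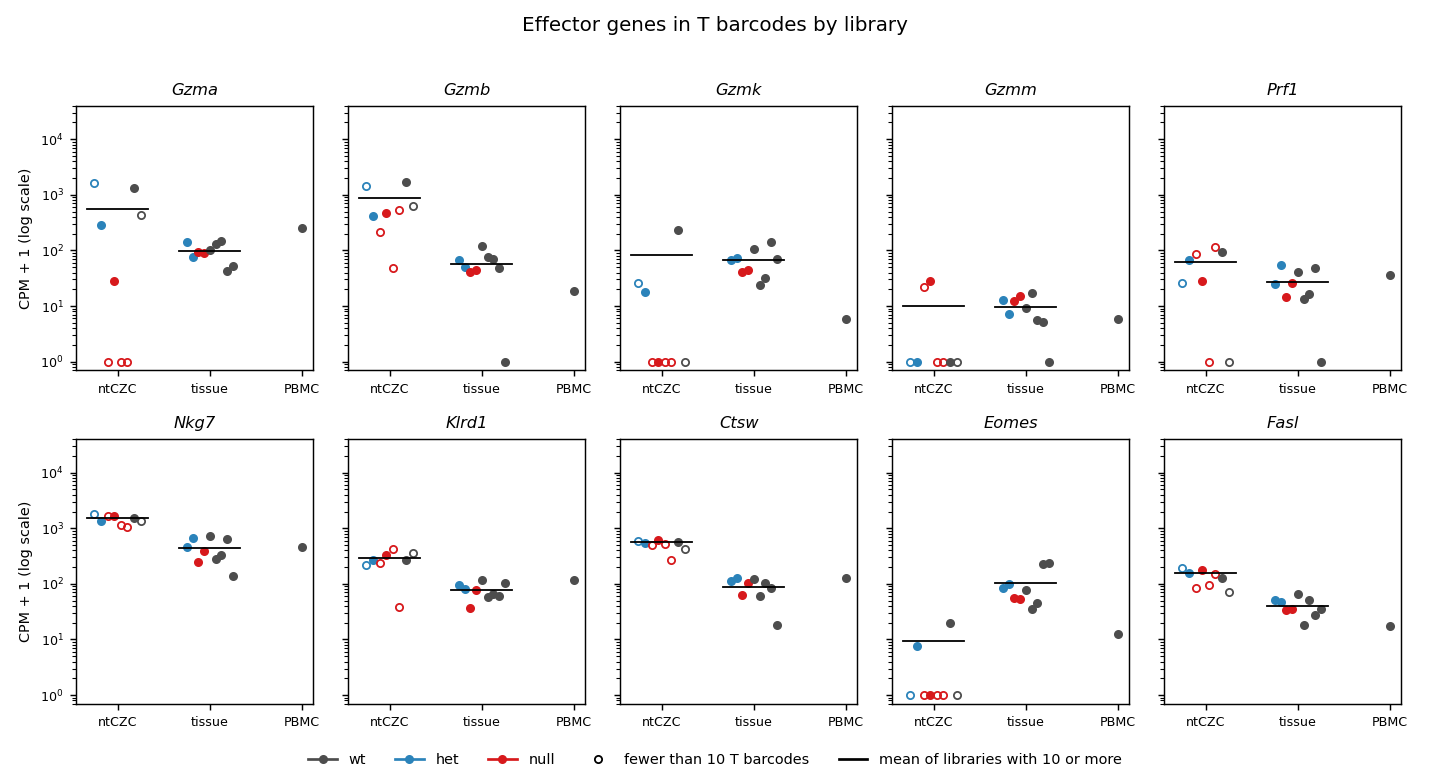
CPM + 1 of each gene (log axis) in T barcodes of every library with a genotype and any T barcode, by kind of library and coloured by Nalcn genotype; open points are libraries with fewer than 10 T barcodes, which entered no test, and lines are means of the others. For Gzmb, Nkg7, Klrd1, Ctsw and Fasl the 3 filled ntCZC points lie above the points of all 9 tissue libraries with a genotype, and for Eomes below them.

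Other features of the T barcodes moved with the kind of library. The summed level of 8 NK markers was 998 to 1253 CPM in ntCZC T barcodes and 163 to 464 CPM in tissue T barcodes. All 8 were found in ntCZC T barcodes, from 2.4% of barcodes (Klra8) to 60.8% (Klrk1), and in tissue from 0.14% (Klra8) to 11.5% (Tyrobp). Tyrobp (116 to 230 CPM in ntCZC and 0 to 247 CPM in tissue), Klre1 (73.7 to 166 and 5.75 to 222) and the rare Klra4 and Klra8 overlapped between the kinds, while Klrk1, Klrb1c, Ncr1 and Fcer1g did not. Cxcr6 was at 516 to 765 CPM against 44.1 to 434 CPM, while Tmem176a (160 to 369 against 0 to 388) and Itga1 (132 to 240 against 34.1 to 137) overlapped. Haemoglobin genes summed to 26.6 to 72.8 CPM against 222 to 33840 CPM. The 8 T markers summed to 5747 to 8110 CPM against 2610 to 3822 CPM. Depth differed too, with a pooled median of 4674 UMIs per ntCZC and 1579 per tissue T barcode. The ntCZC cells had passed a sort for ZSG and the tissue cells had not, and the part of these differences in the result was not tested.

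Of the genes beside the members, 12 of 18 receptors and adaptors reached the count needed. Among these 8 rose in ntCZC T barcodes and none fell, beside 10.2% higher and 15.5% lower among all 6851 genes. Klra7 (3.39 ± 0.50 SE), Klra9 (3.27 ± 0.62 SE), Klrk1, the NKG2D receptor (2.52 ± 0.40 SE), and Klre1 (2.35 ± 0.63 SE) changed most. Xcl1 rose by 2.04 ± 0.43 and Ccl5 by 1.33 ± 0.43 (SE) out of 7 cytokines and death ligands. Zeb2 and Tcf7 fell by 2.53 and 0.99 (SE 0.90 and 0.35) out of 8 transcription factors, and none of the 6 genes of granule handling was called. Coro1a rose by 1.04 ± 0.19 (SE), and Rab27a, which docks granules, fell by 1.57 (SE 0.45).

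**Figure D4:**
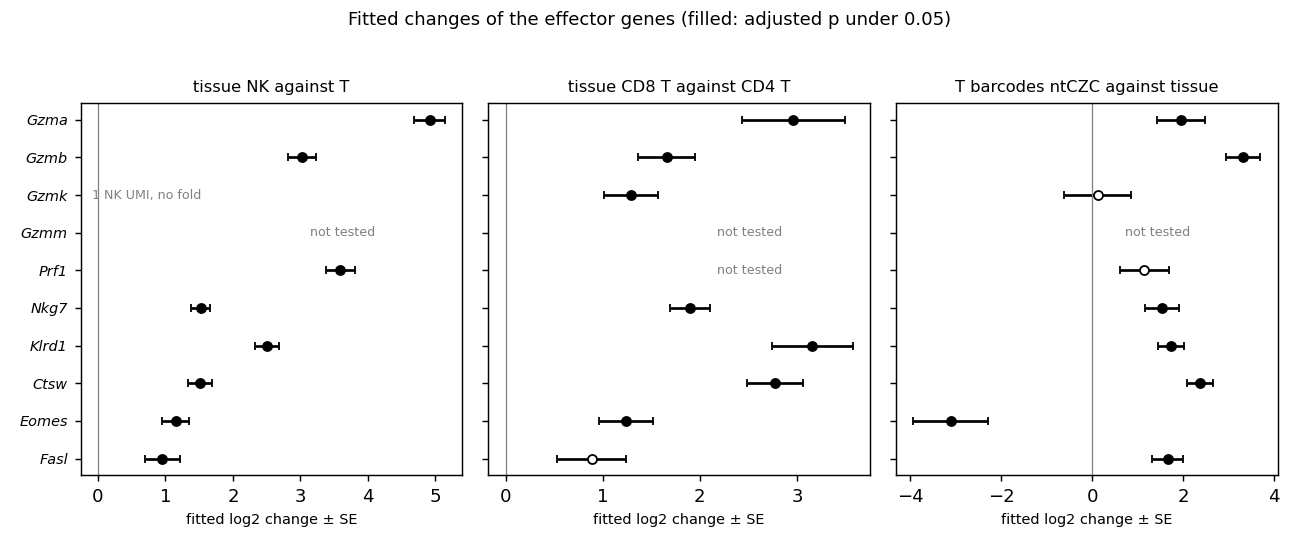
Fitted log2 change ± SE of each gene in 3 comparisons: tissue NK against T barcodes and tissue CD8 against CD4 T barcodes (8 libraries each), and T barcodes of 3 ntCZC against 9 tissue libraries. Filled points have an adjusted p under 0.05; Gzma ranges from 4.91 in NK barcodes to 1.96 in ntCZC T barcodes, and Eomes is positive in the first 2 and negative (-3.11) in the third.

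T barcodes with UMIs of the NK receptor genes were more frequent in ntCZC libraries. A UMI of Ncr1 or Klrb1c was found in 36 of 125 ntCZC T barcodes (28.8%, 95% exact interval 21.1 to 37.6%), 29.6% to 33.3% in each of the 3 libraries, in 84 of 5562 tissue T barcodes (1.51%, 1.21 to 1.87%), 0% to 4.03% by library, and in 4 of 252 PBMC T barcodes (1.59%). In the fit over all genes, which scales by library total, Ncr1 rose by 3.90 ± 0.55 and Klrb1c by 3.19 ± 0.66 on the log2 scale (SE, adjusted p = 0.000253 and 0.00362 by edgeR's quasi-likelihood test). These barcodes carried most of the Gzma of T barcodes outside the organs. In ntCZC, 224 of 307 Gzma UMIs lay in those 36 barcodes, only 11 of which had any. The pooled level was 1280 CPM with the receptors and 180 CPM without. In tissue the pooled levels were 1329 and 76.7 CPM, and in PBMC 147 of 159 Gzma UMIs lay in 2 of the 4 barcodes. Only 1 ntCZC library, het replicate 4, had at least 10 T barcodes with the receptors (18). There Gzma was at 513 CPM and in 11.1% of them, against 318 to 2006 CPM and 20% to 40% in 5 tissue libraries. Gzmk was near absent from tissue T barcodes with the receptors, 1 UMI in 84 barcodes against 759 in 5478. This was not seen in ntCZC, where 8 of the 31 Gzmk UMIs of T barcodes lay in the 36 barcodes with the receptors. They came from 2 barcodes, at a pooled 45.7 CPM.

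Gzmb differed between kinds of library on either side of this division. With the receptors it was at 1658 CPM in ntCZC and 274 CPM in tissue, and without them at 326 and 62.4 CPM. Thinned to 1000 UMIs, 42.1% and 14.4% of barcodes with the receptors and 19.5% and 3.96% of those without had a Gzmb UMI. When only T barcodes without Ncr1 and Klrb1c UMIs were fitted, 2 ntCZC libraries kept at least 10 barcodes, and 3 of 9 members tested were called, beside 12.3% of all 7396 genes (908). These were Gzmb (log2 change 2.25), Ctsw (2.00) and Fasl (1.68), while Gzma was at 0.21 (adjusted p = 0.838), Nkg7 at 1.34 (adjusted p = 0.0572) and Klrd1 at 1.08 (adjusted p = 0.0518). This fit was chosen after the values had been seen.

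**Figure D5:**
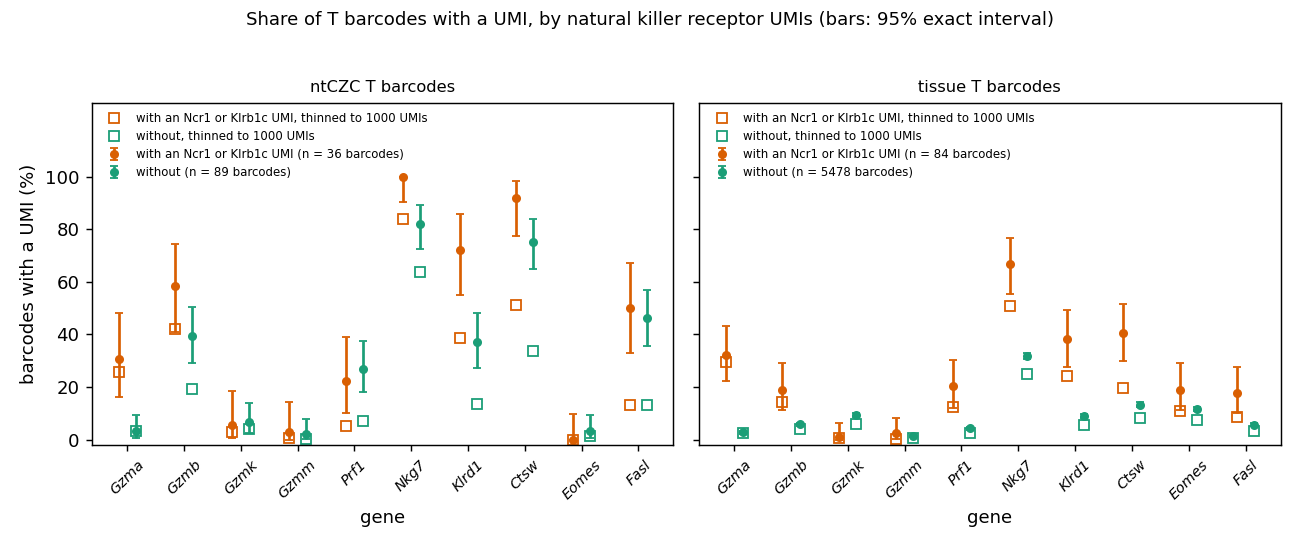
Share of T barcodes with a UMI of each gene, with (orange) and without (green) a UMI of Ncr1 or Klrb1c, pooled over ntCZC (left) and tissue libraries (right); filled points are unthinned with 95% exact intervals that cover counting error only, and open squares are thinned to 1000 UMIs. Gzma is found in 30.6% against 3.37% of ntCZC and in 32.1% against 2.78% of tissue T barcodes. Of the 36 ntCZC barcodes with the receptors, 18 are of het replicate 4, where 11.1% had Gzma.

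NK barcodes of the sorted and unsorted blood gave values without a test, because only ntCZC het replicate 4 (16 NK barcodes) and the PBMC library (43) had 10 or more. In ntCZC het replicate 4, Gzmb was at 2346 CPM, Ctsw at 1236 and Nkg7 at 2456, each above all 8 tissue libraries with a genotype (highest 946, 483 and 2160 CPM). Gzma (4739 CPM), Klrd1 (766), Prf1 (297) and Fasl (141) lay within the tissue range, and Eomes, Gzmk and Gzmm had no UMI. Over all 20 ntCZC NK barcodes, Gzmb was found in 20 (100%, 95% exact interval 83.2 to 100%), Gzma in 13 (65.0%, 40.8 to 84.6%) and Eomes in 1 (5.00%, 0.13 to 24.9%). Gzmk and Gzmm were found in 0 of 20, which allows up to 15% of barcodes with a UMI and does not bound the cells that express them. Of the 8 T cell markers, Trbc1 (1283 CPM against 49.97 to 509 in tissue NK barcodes) and Trbc2 (1142 against 75.0 to 361) were higher in ntCZC het replicate 4. Lck, at 188 CPM, lay within the tissue range of 24.98 to 245 CPM, Cd5 and Trac had no UMI, and the gate itself sets the Cd3 genes to 0.

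PBMC NK barcodes were rich in granzyme A and perforin. Gzma was at 19030 CPM (95% Poisson interval 18100 to 19990) and Prf1 at 2125 CPM (1822 to 2463), both above the 8 tissue libraries with a genotype (highest 6371 and 685 CPM) and the 2 without (highest 6739 and 817 CPM), and 97.7% and 93.0% of the 43 barcodes had a UMI. Nkg7 (4467 CPM), Klrd1 (1256), Gzmb (1256) and Ctsw (555) were also above the tissue range, and Eomes (290) and Fasl (84.5) lay within it. PBMC T barcodes were low in Gzmb (17.7 CPM, 8.85 to 31.7), Eomes (11.3, 4.54 to 23.3) and Gzmk (4.84, 1.00 to 14.1). The PBMC library (wt) differs from ntCZC het replicate 4 in age, genotype and the sort for ZSG, and from the tissue libraries in age and organ, and within each pair these cannot be told apart. The intervals cover counting error only.

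The share of NK among T and NK barcodes did not separate the kinds of library. It was 6.90%, 10.0%, 22.5% and 0% in the 4 ntCZC libraries with at least 10 such barcodes, and 0% to 11.6% in the 9 tissue libraries. The means were 9.86% ± 9.43 (SD, n = 4) and 7.24% ± 4.56 (SD, n = 9), a difference of 2.62 percentage points (exact two-sided permutation test, p = 0.498). Without ntCZC het replicate 4 the difference was -1.60 (exact permutation p = 0.6).

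No member was called between Nalcn genotypes in tissue T or NK barcodes. Among tissue T barcodes (5 wt, 2 het and 2 null libraries), edgeR's quasi-likelihood test called 29 of 9150 genes between null and wt (0.317%) and 0 between het and wt (0%, with 622 at an unadjusted p under 0.05 and 15 by DESeq2). None of the 10 members was called in either, or had an unadjusted p under 0.05. Their log2 changes ran from -0.89 (Gzmk and Eomes) to 0.91 (Gzmm) for null, and from -0.41 (Gzmb) to 0.74 (Prf1) for het. Gzmb stood at 40.2 and 42.9 CPM in the null, 65.4 and 48.7 in the het and 0 to 117 CPM in the wt libraries, so the genotypes overlapped.

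Among tissue NK barcodes (4 wt, 2 het and 2 null libraries), 25 of 1091 genes were called between null and wt (2.29%) and 0 between het and wt (0%, with 66 at an unadjusted p under 0.05 and 4 by DESeq2). Of the members 7 were tested and none was called, with 1 at an unadjusted p under 0.05 for null and 0 for het. Eomes had the widest difference, at 49.97 and 135 CPM in null, 236 and 170 in het and 80.2 to 522 CPM in wt libraries, a null log2 change of -1.74 ± 0.64 (SE, unadjusted p = 0.0216, adjusted p = 0.306). The lower of the null values is that of null replicate 2, the library low in NK markers. With these numbers of libraries a missing call does not show that the genotypes were alike. DESeq2 also called no member in any of the 4 comparisons.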

How the data were processed

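Gene by barcode matrices of UMI counts were deposited by the authors for each of 22 libraries (10x Genomics 3' version 3 chemistry, mm10). The labels name Cell Ranger 2.1.1 and Seurat without a version, while the matrix headers name Cell Ranger 3.0.2, and the counts as deposited are whole numbers without normalization. No depth scaling, doublet removal or annotation of cells was found in them.

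Barcodes were kept from 200 genes upwards if mitochondrial UMIs made up no more than 25%, and T and NK barcodes with at least 2 UMIs of another lineage were set aside, which is how doublets were treated. No doublet caller was run. Hashtag reads were not used, so organs within a tissue library were not told apart. Counts were summed per library and class (at least 10 barcodes), scaled by TMM, filtered with filterByExpr and tested with edgeR 4.0.16 (R 4.3.3) by the quasi-likelihood test, with Benjamini-Hochberg adjustment over all genes at 0.05. The library was a block for comparisons of classes, and sex a covariate for comparisons of library kinds and genotypes. CPM values were taken within each class sum, before TMM scaling. Shares of barcodes were thinned to 1000 UMIs by the exact expected value, leaving out shallower barcodes. At this cut 124 of 125 ntCZC and 4400 of 5562 tissue T barcodes and 20 of 20 and 296 of 375 NK barcodes remained. Intervals are 95% exact (Poisson or Clopper-Pearson) and cover counting error only. Upper limits for a count of 0 are instead 3 counts divided by the number of barcodes, which lies somewhat below the exact limit. Gene positions are from GENCODE (GRCm38).

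The members and lists were chosen with earlier results of these data known. All 10 members were named, and up to 4 called genes per role with the largest log2 change. Alternatives were RLE scaling, DESeq2 1.42.0, no filter on low counts, keeping barcodes with other lineages, a stricter barcode filter (500 genes, 10% mitochondrial UMIs), 2 UMIs for the gate, 20 or 5 barcodes per library, no block or covariate, a replicate block, thinning to 500 UMIs and leaving out each library. Tested on simulated data, the NK against T step (5641 genes) recovered 39% of 100 changes of log2 size 1 and 77% of 100 of size 2 with 10 false calls, the CD8 against CD4 T step (2592 genes) 70% and 91% with 11, and the ntCZC against tissue step (6384 genes) 9% and 65% with 1. The labels do not say whether libraries of the same number share a mouse. Of 6 pairs of ntCZC and tissue libraries with the same genotype and number, 4 have the same age and sex. Deviations of their T sums could be compared only for wt replicate 1 (correlation 0.007) and null replicate 2 (0.026), too few to decide whether such libraries are paired. Same-numbered tissue libraries of different genotypes correlated by -0.17 to 0.20. The replicate block is given as an alternative only. The comparison of NK barcodes between ntCZC and tissue was not run, because 1 ntCZC library had enough of them. Nalcn genotypes within ntCZC T barcodes were not compared, because 1 library of each genotype had 10 or more.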

Additional observations from a re-analysis of the deposited data

Results flagged for a closer look

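A library was set apart when its gap to the nearest of its group was large against their range (Dixon's test at the 95% level). For normally distributed values chance alone does this in about 1 of 20 groups. That rate cannot be applied here, because many values were 0 and wt libraries were examined both alone and among all tissue libraries. Of 82 groups of 4 to 9 libraries examined, 11 held such a value, and they were of few UMIs or of single tissue libraries. Gzmk in NK barcodes of tissue wt replicate 2 was 16.4 CPM, from 1 UMI, and 0 in the other 7 libraries and in the other 3 wt libraries. Gzmb in CD8 T barcodes of tissue wt replicate 1 was 224.4 CPM, from 99 UMIs, against 40.73 to 106.1 CPM in the other 7 libraries and 40.73 to 59.91 in the other 3 wt libraries. Gzmm in CD8 T barcodes of tissue wt replicate 2 was 77.54 CPM, from 41 UMIs, against 6.799 to 11.98 CPM in the other 3 wt libraries.

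CD4 T barcodes of tissue wt replicate 4 stood apart in 3 genes. Gzma was 50.61 CPM there, from 21 UMIs, against 0 to 11.06 CPM in the other 7 libraries. Klrd1 was 48.2 CPM, from 20 UMIs, against 0 to 8.331 CPM in the other 7 libraries and 0 to 7.255 in the other 3 wt libraries. Nkg7 was 460.3 CPM, from 191 UMIs, against 291.2 to 302.3 CPM in the other 3 wt libraries. Ctsw in CD4 T barcodes of tissue het replicate 2 was 76.29 CPM, from 3 UMIs, against 0 to 36.15 CPM, and Fasl in those of tissue wt replicate 3 was 97.05 CPM, from 2 UMIs, against 0 to 44.26 CPM.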

How the results depend on the processing

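Over 481 alternative values of 25 log2 changes of members in the class and library kind comparisons (Gzmk in NK against T barcodes, given as a ratio, is not among them), 450 kept their direction and side of the threshold, 23 fell short of it, 1 passed it and 7 changed sign. The 7 were all of Gzmk in T barcodes of ntCZC against tissue, a change near 0 (0.12). It was -0.045 without a filter on low counts, -0.178 with the stricter barcode filter (500 genes, 10% mitochondrial UMIs), -0.378 with 5 barcodes per library, -0.078 without sex, -1.102 in T barcodes with neither Cd4 nor Cd8 UMIs (chosen after seeing the data), -2.201 without ntCZC wt replicate 1 (0.792 without ntCZC het replicate 4, the highest of these) and -0.081 without tissue wt replicate 2. In tissue NK against T barcodes 9 members were called, beside 12.8% of all genes, and 5 when barcodes of other lineages were kept. In CD8 against CD4 T barcodes 7 were called, beside 7.12% of all genes. With the stricter barcode filter 4 were called there (7 tested), beside 0.95%. Without the library block 2 were called (4 tested, since the filter on low counts then passed fewer genes). In T barcodes of ntCZC against tissue 7 were called, beside 25.7% of all genes. Without Ncr1 and Klrb1c UMIs 3 were called, beside 12.3%, and fewer libraries were left. Leaving out 1 library gave 8 to 9, 6 to 9 and 5 to 7 calls in these comparisons. Where no share of all genes stands beside a count, the count does not set the members apart from genes in general. Prf1 passed in T barcodes of ntCZC against tissue with 5 barcodes per library (adjusted p = 0.0461 by edgeR). The NK share difference was -0.844 points with other lineages kept and ran from -1.60 to 5.91 when 1 library was left out, negative only without ntCZC het replicate 4. The genotype comparisons had 0 members called under each alternative run, and NK null against wt could not be run with the stricter barcode filter. With genotype and replicate number as a block and without sex, 6 members were called in T barcodes of ntCZC against tissue and Fasl was not (adjusted p = 0.0912), while 759 genes were called in place of 1762. That fit rests on wt replicate 1 and null replicate 2, the only blocks with both kinds of library. The cause of these shifts was not tested.
Going from TMM to RLE scaling moved the median log2 change of all genes in NK against T barcodes from -0.09 to 0.02, and all 9 members were called under both. Depth limits Gzmm, with 110 T and 7 NK UMIs in tissue, and every ntCZC NK value, from 20 barcodes. Shares thinned to 500 UMIs or unthinned moved by over 1 SD in 15 of 40 cases.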

Other observations

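The 2 tissue libraries whose labels disagree on the genotype held 1318 T and NK barcodes and entered no comparison. In their T barcodes Gzmb was at 191 and 140 CPM, and Gzmk at 171 and 133 CPM. Nkg7 was at 1462 and 727 CPM in these T barcodes, and in CD4 T barcodes of the first it was at 2040 CPM. In their NK barcodes Gzma was at 6739 and 6140 CPM and no Gzmk UMI was found in either library.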
